A study of Mus musculus with 4 samples.

Results

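The Kcnj2-Sox9 locus was described here from its peaks of CTCF, the zinc finger protein found at most insulators, and of RAD21, a subunit of the cohesin ring. Its members are all the peaks of 5 mm10 lists on chromosome 11 between chr11:110668033-113087760. This window reaches from 300 kb before Kcnj16, the first of the 3 member genes, to 300 kb after Sox9, the last, in the GENCODE annotation of mm10. Where peaks of different lists overlapped by at least 1 bp they were merged into a site. The window held 19 of the 33037 sites of the whole series on chromosomes 1 to 19, X and Y. The sites were numbered from 1 to 19 by position, from left to right.

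The series profiled E12.5 whole limbs of B6CBAF1 embryos that carried TgN(38-40)/Wt together with del(CS38-40)-/-. They were hemizygous for an ectopic insertion of region CS38-40, a sub-TAD border of the HoxD locus, into chromosome 10, and lacked both native copies on chromosome 2. Neither change touches chromosome 11. CTCF and RAD21 were each measured by ChIPmentation in 2 biological replicates, and the fifth list is a RAD21 ChIP-seq library of wild-type E12.5 limbs taken from an earlier study. The wild-type list differs from the others in genotype and in method, and these cannot be told apart. The 2 input samples were not used here. The lists hold peaks and no expression values, so the tissue label was not checked against marker genes. They hold no read counts either, and the depth of each library is unknown.

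Sox9 encodes a transcription factor that directs the formation of cartilage. Kcnj2 and Kcnj16 encode inward rectifier potassium channels. Sox9 is separated from Kcnj2 by a long gene desert, which is known to carry distant enhancers of Sox9 and a boundary between the regulatory domains of the 2 genes. Duplications that span this boundary are known to bring Kcnj2 under the control of Sox9 enhancers in the developing limb. CTCF binds an asymmetric motif and can halt cohesin as it extrudes a loop of chromatin, so the strand of the motif matters. Loops commonly join motifs that point toward each other, whereas boundaries often hold motifs that point away from each other.

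All 3 genes are on the plus strand. Kcnj16 covers chr11:110968033-111027968, Kcnj2 covers chr11:111066164-111076821 and Sox9 covers chr11:112782224-112787760. The desert between the end of Kcnj2 and the start of Sox9 is 1705402 bp long and contains no other protein-coding gene. The window holds 13 annotated genes, of which 3 are protein-coding, 5 are long intergenic non-coding RNA genes, 1 is a processed transcript and 4 are processed pseudogenes.

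On the Kcnj2 side of the desert, CTCF motifs changed strand between sites 7 and 8. Sites 5, 6 and 7 had their motif on the minus strand, which points toward Kcnj2, and sites 8, 9 and 10 had theirs on the plus strand, which points toward Sox9. These 6 motifs are shown because they carry the strand change. Each sequence is read 5′ to 3′ along its motif strand from the reference genome (GRCm38, which is mm10), with 20 bases on either side in lower case and the motif in capitals. The embryos were B6CBAF1, so their own sequence may differ from this reference. Site 5 is at chr11:111445975-111445993 (minus), site 6 at chr11:111523668-111523686 (minus), site 7 at chr11:111532652-111532670 (minus), site 8 at chr11:111536218-111536236 (plus), site 9 at chr11:111537839-111537857 (plus) and site 10 at chr11:111653059-111653077 (plus).
Site 5: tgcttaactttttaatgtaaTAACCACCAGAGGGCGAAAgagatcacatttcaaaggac
Site 6: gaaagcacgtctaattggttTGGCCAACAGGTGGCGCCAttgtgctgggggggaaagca
Site 7: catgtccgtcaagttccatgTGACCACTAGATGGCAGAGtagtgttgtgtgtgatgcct
Site 8: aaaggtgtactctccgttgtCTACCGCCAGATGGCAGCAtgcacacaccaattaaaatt
Site 9: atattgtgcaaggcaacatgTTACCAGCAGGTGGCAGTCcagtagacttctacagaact
Site 10: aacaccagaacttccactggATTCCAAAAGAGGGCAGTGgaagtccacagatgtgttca

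These motifs are matches to a model of 19 bp learned from 2000 strong CTCF peaks of replicate 2, none of them on chromosomes 2, 10, 11 or 18. Its consensus is TGGCCACCAGGGGGCGCCA. A match was searched on both strands within 50 bp of each CTCF summit, the highest point of a peak, and was kept at a score that 5% of sequences lying 1000 bp from CTCF summits reached. The model was oriented so that its sequence is richer in G than in C. Plus and minus name the strand of the reference genome on which this oriented model matched. The motif was taken to point toward its 3′ end. Among all CTCF sites of the genome that had a motif, the scores of sites 5, 6 and 7 stood at the 72.1, 78.7 and 83.6 percentiles. Those of sites 8 and 9 stood at the 66.1 and 82.8 percentiles, and that of site 10 at the 16.8 percentile. None of the 6 motifs is repeat-masked. A match describes the sequence and is not in itself a measure of binding.

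The divergent pair of sites 7 and 8 lies between 466.5 and 470.1 kb right of the start of Kcnj2, nearer to Kcnj2 than to Sox9, and its motifs start 3566 bp apart. Sites 6 and 7 start 8984 bp apart, and sites 8 and 9 start 1621 bp apart, so 4 CTCF motifs fall within 14.2 kb. Site 5 lies 77.7 kb to the left of site 6, and site 10 lies 115 kb to the right of site 9. Across the genome, 25.0% of 21236 pairs of adjacent motif-bearing CTCF sites were divergent and 50.0% were in tandem, that is, on the same strand. Among the 1853 pairs at most 5 kb apart, 27.8% were divergent, so a close divergent pair is in itself common. Of the 8 adjacent pairs of this window, 6 were in tandem, 1 was divergent and 1 was convergent. The convergent pair, sites 17 and 18, rests on the weak match of site 18, at the 0.936 percentile. The tally depends on the width of the search. With 100 bp on either side of the summits, sites 13, 14 and 16 gained a motif and the 11 pairs were 5 in tandem, 3 divergent and 3 convergent, so sites 7 and 8 were then not the only divergent pair.

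**Figure D1:**
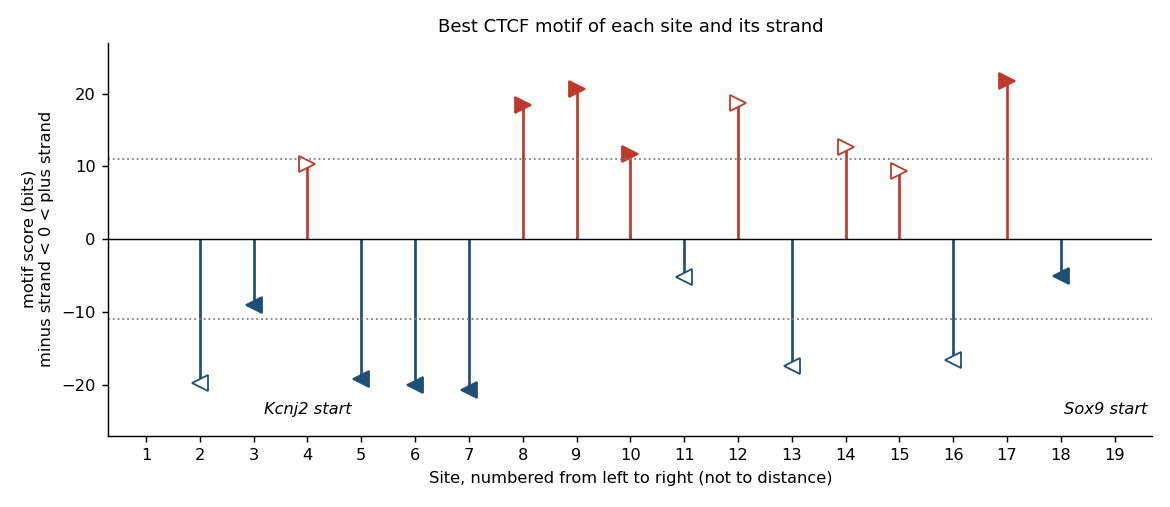
Score in bits of the best CTCF motif in each site (vertical axis), plotted upward with a right-pointing marker for the plus strand and downward with a left-pointing marker for the minus strand, against site number (horizontal axis). Filled markers are motifs within 50 bp of a CTCF summit, open markers are motifs elsewhere in the site or at sites with a RAD21 peak only, the dotted lines are the score reached by 1% of flanking sequences, and sites 1 and 19 have no motif; from site 5 to site 7 the markers point left, and from site 8 to site 10 they point right.

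Of the 15 CTCF sites of the window, 9 had a motif within 50 bp of a summit, against 73.8% of all 28789 CTCF sites. The 9 comprised 4 on the plus strand and 5 on the minus strand. At the stricter score, reached by 1% of flanking sequences, 7 were left, namely sites 5, 6 and 7 on the minus strand and sites 8, 9, 10 and 17 on the plus strand. Sites 3 and 18, the nearest CTCF sites to the starts of Kcnj2 and Sox9, were the ones lost. Site 3 scored at the 8.22 percentile.

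The remaining CTCF sites were searched over their whole length as well, since a summit can stand away from the motif. At site 2, left of Kcnj2, this search found a minus strand motif with a percentile of 76.3, 147 bp from the CTCF summit of replicate 1 and 116 bp from that of replicate 2. Site 13 had a minus strand motif at the 56.7 percentile, site 14 a plus strand motif at the 20.9 percentile and site 16 a minus strand motif at the 49.0 percentile. At site 15 the best match, on the plus strand, was below the stricter score. With these matches, every CTCF site with a motif from site 2 to site 7 was on the minus strand, and sites 8 to 10 were on the plus strand. To the right of site 10, strands were mixed, with sites 14, 15 and 17 on the plus strand and sites 13, 16 and 18 on the minus strand. A single change of strand was therefore seen from site 2 to site 10 among the sites with a CTCF peak, and not over the whole window. That range stops before site 13, where the strand changes again, so its end was read from these same motifs. How often such a run occurs in the genome was not computed. Site 4, which lies in that range and has a RAD21 peak only, had a plus strand match below the stricter score.

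CTCF sites were spread unevenly over the locus. The union of both replicates held 15 sites over 2.42 Mb, or 6.20 per Mb, with 13 sites in replicate 1 and 12 in replicate 2. Of the 15 sites, 12 lay in the desert and 3 just left of Kcnj2. No CTCF peak was called in either replicate within Kcnj16, within Kcnj2 or within Sox9. Both replicates called 10 of the 15, numbers 2, 3, 6, 7, 8, 9, 10, 13, 14 and 18, against 73.0% of all CTCF sites.

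Of 2356 autosomal windows of the same length, placed every 1 Mb and so overlapping, 30.7% held as few or fewer CTCF sites, and the median window held 24. Such windows have a median of 14 protein-coding gene starts, while this one has 3. Among the 465 windows with at most 5 gene starts the median was 7 CTCF sites, and 87.7% held 15 or fewer. The locus thus had fewer CTCF sites than the median window of the genome and more than the median gene-poor window. These percentages describe the windows and are not tests.

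**Figure D2:**
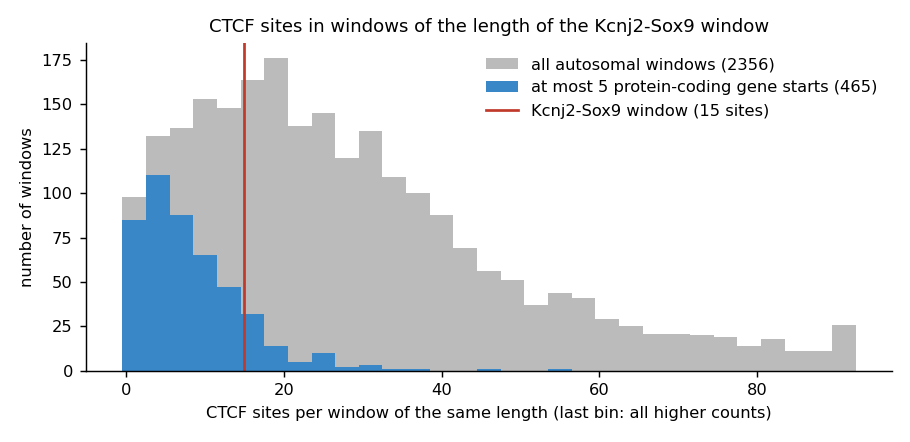
Number of autosomal windows (vertical axis) by their number of CTCF sites (horizontal axis), for all 2356 windows of the same length in gray and for the 465 with at most 5 protein-coding gene starts in blue. The red line marks the 15 sites of the Kcnj2-Sox9 window, to the left of most of the gray windows and to the right of most of the blue ones.

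Long stretches without a CTCF peak separated short groups of sites. The longest gap inside the window, of 450 kb between sites 10 and 13, exceeded 97.1% of the gaps between adjacent CTCF sites on the autosomes, whose median was 32.2 kb. Between sites 3 and 5 there were 381 kb without a CTCF peak, and between sites 14 and 15 there were 315 kb. Sites 7 and 8, at 3.23 kb, and sites 8 and 9, at 1.25 kb, had the shortest gaps apart from the 20 bp between sites 1 and 2. The next CTCF site to the left of site 1 was 469 kb away, and the next to the right of site 18 was 385 kb away. Kcnj16 and the whole left flank thus had no CTCF site, nor had the right flank beyond Sox9.

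**Figure D3:**
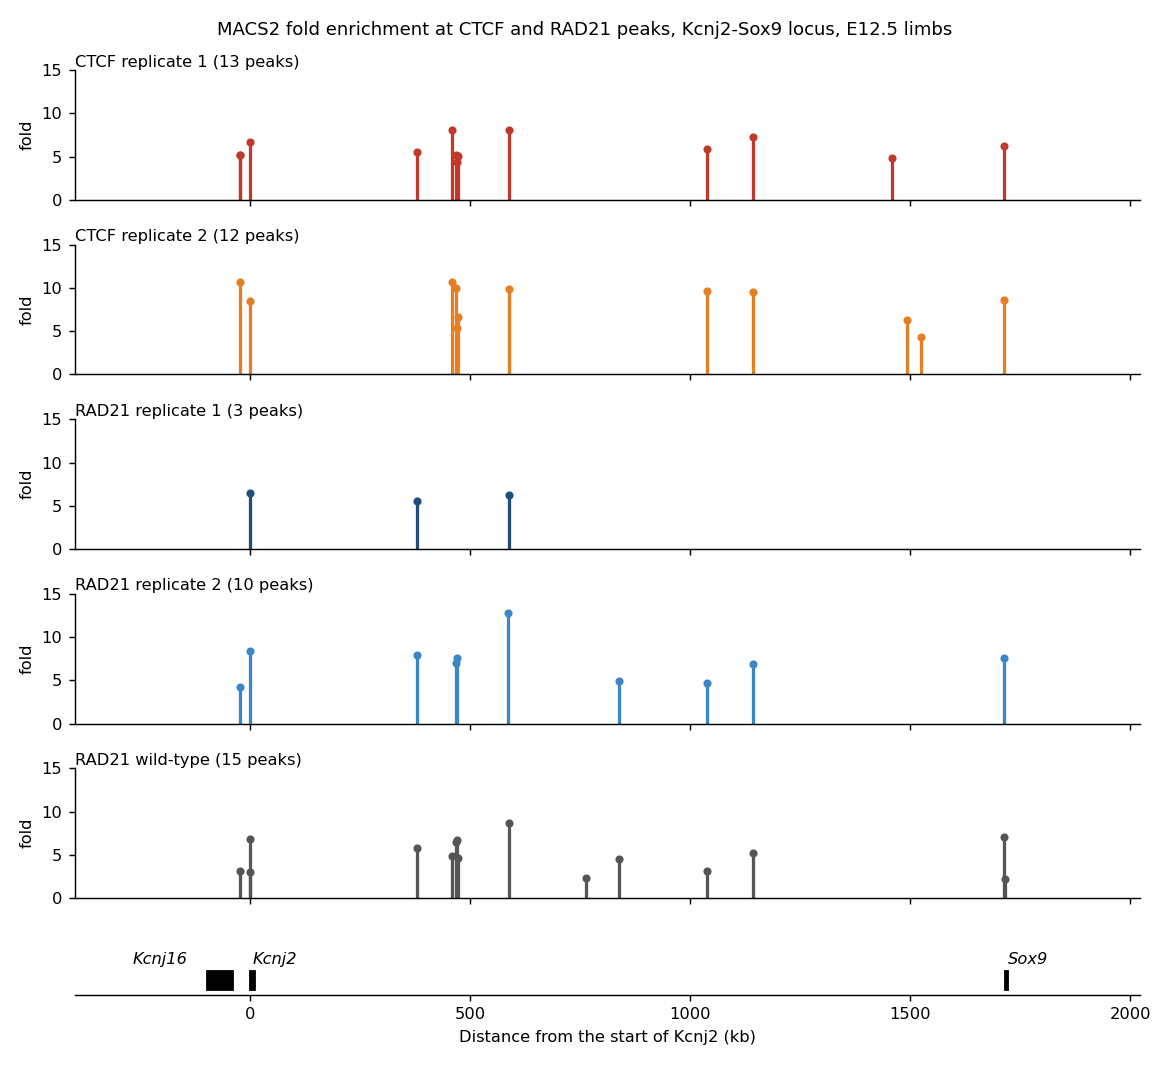
Height of each peak as the MACS2 fold (vertical axis) against the distance of its summit from the start of Kcnj2 in kb (horizontal axis), 1 panel per library, with the 3 genes drawn below. Folds are comparable within a panel only; the panels hold 13, 12, 3, 10 and 15 peaks, and in RAD21 replicate 2 site 10, 587 kb from Kcnj2, is the highest.

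CTCF sites were ranked within each list by fold enrichment, the height of a peak over its local expectation. In replicate 1 their folds ran from 4.35 to 8.13 with a median of 5.59, below the median of 6.52 of all peaks of that list. In replicate 2 they ran from 4.38 to 10.7 with a median of 9.08, above the list's median of 7.63. The direction relative to the genome thus differed between the replicates, and no statement on the strength of the whole group holds in both. Site 6 was the strongest of replicate 1, with a fold of 8.13 and rank 5260 of 23829, and ranked next to site 2 in replicate 2, with 10.6 and rank 4704 of 26264. Site 10 had folds of 8.03 and 9.94, with ranks of 5576 and 6320. Both sites therefore stood above the middle of each CTCF list.

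Other CTCF sites changed place between the replicates. Site 2 was the highest of the window in replicate 2, with a fold of 10.7 and rank 4540 of 26264, while in replicate 1 it had a fold of 5.15 and ranked 19052 of 23829. Site 7 ranked 18729 in replicate 1, with a fold of 5.22, and 6261 in replicate 2, with a fold of 9.96. In the same group, site 8 was low in both, with folds of 4.35 and 5.41, and so was site 9, with 5.07 and 6.63. On the Sox9 side, site 14 had folds of 7.27 and 9.51, and site 13 of 5.87 and 9.65. Their RAD21 folds were 6.94 and 5.22 at site 14 and 4.65 and 3.12 at site 13, in replicate 2 and in the wild-type library. Of the 5 CTCF sites called in a single replicate, sites 1, 5 and 15 came from replicate 1, with folds of 5.22, 5.59 and 4.90. Sites 16 and 17 came from replicate 2, with folds of 6.26 and 4.38.

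**Figure D4:**
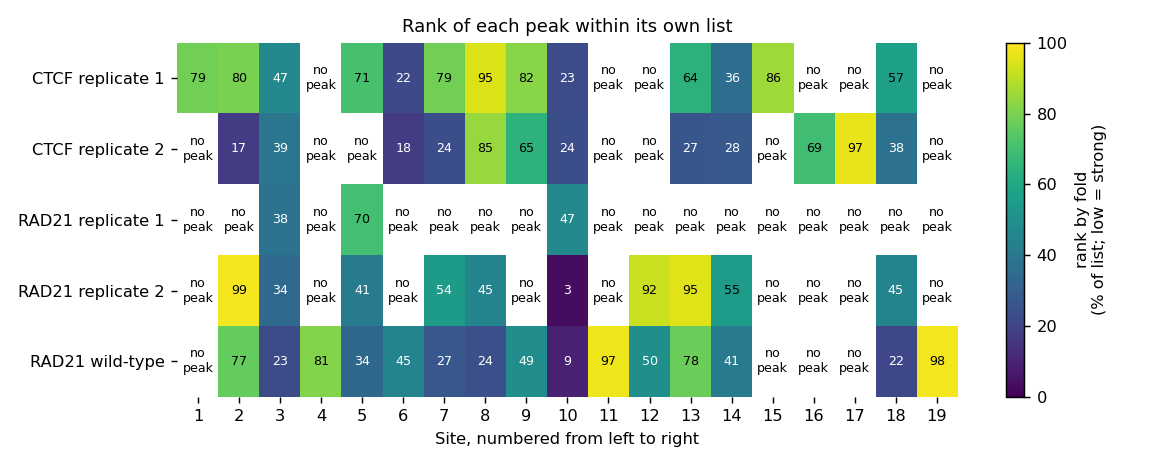
Rank by fold of each peak within its own list, as a percentage of the list (color and number, low values are strong peaks), for every site (horizontal axis) and library (vertical axis). Site 10 is at 3% in RAD21 replicate 2 and at 9% in wild-type RAD21, and cells marked no peak are sites without a call in that library.

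RAD21 had a peak at 15 sites in all. The wild-type library called each of the 15, replicate 2 called 10 of them and replicate 1 called 3. The 3 sites of replicate 1 were 3, 5 and 10, and these had a RAD21 peak in all 3 libraries. The 10 sites of replicate 2 were all among the 15 of the wild-type library, a share close to the 66.2% of all wild-type peaks that overlapped a peak of replicate 2. RAD21 replicate 1 is also the shortest list of the genome, with 4102 peaks beside 14787 for replicate 2 and 20874 for the wild-type library.

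Site 10 was the leading RAD21 site of the locus. It is intergenic, at chr11:111652876-111653316, 587 kb right of the start of Kcnj2. Replicate 1 gave it a fold of 6.22 and rank 1924, replicate 2 a fold of 12.8 and rank 505, and the wild-type library a fold of 8.66 and rank 1906. In replicate 2 and in the wild-type library it was the highest of the window. In replicate 1 site 3 was higher, with 6.53. CTCF at site 10 was close to that at site 6 in both replicates, whereas RAD21 was not called at site 6 in either transgenic replicate.

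Site 3, at chr11:111064559-111065016, lies 1148 bp left of the start of Kcnj2. CTCF had folds of 6.68 and 8.51 there. For RAD21, replicate 1 gave 6.53, replicate 2 gave 8.42 and the wild-type library gave 6.86. Site 18, at chr11:112779763-112780196, is its counterpart at Sox9, 2028 bp left of the gene, in an intron of the non-coding gene BC006965 on the opposite strand. CTCF had folds of 6.20 and 8.64 at site 18. RAD21 reached 7.63 in replicate 2 and 7.03 in the wild-type library, where only site 10 of the window was higher, and replicate 1 had no peak. Both genes thus had a site with CTCF and RAD21 peaks shortly upstream of their start, and both motifs were weak ones on the minus strand.

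CTCF and RAD21 did not follow the same order in the group around the strand change. Site 6 had the strongest CTCF of the group and no RAD21 peak in either transgenic replicate, and in the wild-type library its fold of 4.90 was below those of sites 7, 8 and 10. Of the 4703 CTCF peaks of replicate 2 with a fold at least that of site 6, 76.6% carried a RAD21 peak of replicate 2. Only site 2 of this window shares that range of folds, and it had RAD21 folds of 4.21 in replicate 2, at rank 14595 of 14787, and 3.17 in the wild-type list. Site 8 had the weakest CTCF of the group, yet RAD21 reached 7.61 in replicate 2 and 6.72 in the wild-type library. Site 7 had RAD21 folds of 7.00 and 6.45, and site 9 had 4.62 in the wild-type library alone. In replicate 2 alone, a RAD21 peak was thus called at sites 7 and 8, the divergent pair, and not at their outer neighbours, sites 6 and 9. Replicate 1 called RAD21 at none of sites 6 to 9, and the wild-type library called it at each of them. Sites 5 and 10 also had a RAD21 peak in replicate 2, so such a peak was not particular to the pair.

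**Figure D5:**
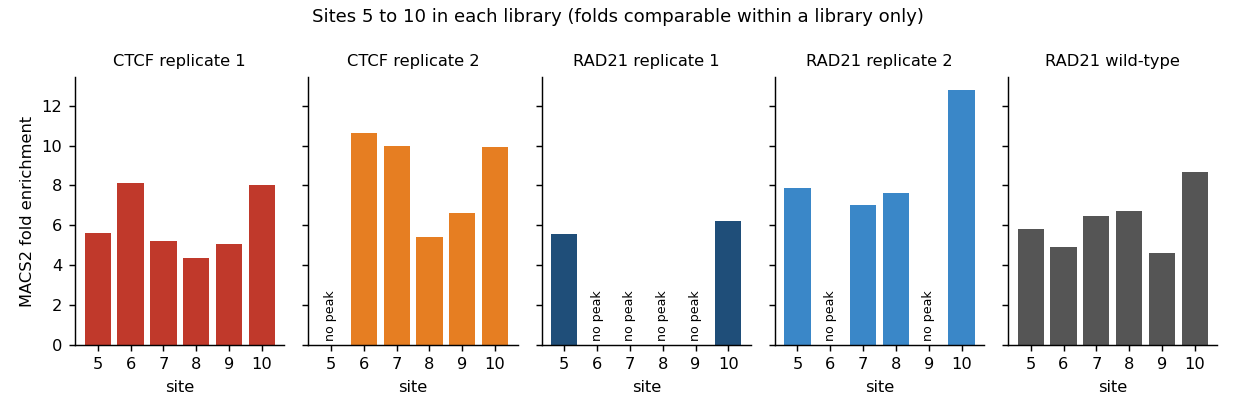
MACS2 fold enrichment (vertical axis) at sites 5 to 10 (horizontal axis), 1 panel per library; folds are comparable within a panel only. Site 6 is the highest bar in both CTCF panels and has no peak in RAD21 replicates 1 and 2, whereas site 10 is the highest bar in the 3 RAD21 panels.

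Site 5 showed the opposite combination. RAD21 was called there in all 3 libraries, with folds of 5.56, 7.88 and 5.83, but CTCF only in replicate 1, with a fold of 5.59. Its motif at the 72.1 percentile starts 4 bp beyond the end of that CTCF peak, which covers chr11:111445840-111445971, and lies within the RAD21 peak of each of the 3 libraries. Of all CTCF sites called in 1 replicate only, 19.5% overlapped RAD21 of replicate 2 and 30.3% that of the wild-type library. Here 1 of 5 did so in either library, and it was site 5 both times.

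Over all 15 CTCF sites, RAD21 of replicate 1 was present at 3, that of replicate 2 at 9 and that of the wild-type library at 11. Across the genome 13.5%, 46.7% and 58.7% of CTCF sites did, so the shares here, of 20.0%, 60.0% and 73.3%, were above the background by a few sites at most. Among the 10 sites called in both CTCF replicates, 8 had RAD21 in replicate 2, against 56.8% in the genome, and 10 had it in the wild-type library, against 69.2%. Peaks are not replicates, and none of these differences was tested. Conversely, 3 of 3 RAD21 peaks of replicate 1 overlapped a CTCF peak, against 95.6% of that list, 9 of 10 in replicate 2, against 91.1%, and 11 of 15 in the wild-type library, against 80.9%.

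No CTCF peak was called at the other 4 RAD21 sites. Site 12, at chr11:111904116-111904467, had folds of 4.89 in replicate 2 and 4.57 in the wild-type library, and a plus strand CTCF motif at the 68.4 percentile within both peaks. Site 11, at chr11:111828557-111828809, had a fold of 2.28 in the wild-type library, rank 20332 of 20874. Sites 4 and 19 covered the starts of Kcnj2 and Sox9 and were called in the wild-type library only. Site 4, at chr11:111065747-111066400, had a fold of 2.99, and site 19, at chr11:112782109-112782386, had a fold of 2.24. They ranked 17001 and 20517 of 20874, so that site 19 stood near the bottom of the list, while RAD21 was much stronger at sites 3 and 18 nearby.

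The reference sequence just upstream of each start, within these 2 peaks, is shown with its CpG dinucleotides in capitals, since both RAD21 peaks lie over the promoter and not over a CTCF peak. The Kcnj2 stretch is chr11:111066044-111066163 and the Sox9 stretch chr11:112782109-112782223, both on the plus strand of GRCm38.
Kcnj2: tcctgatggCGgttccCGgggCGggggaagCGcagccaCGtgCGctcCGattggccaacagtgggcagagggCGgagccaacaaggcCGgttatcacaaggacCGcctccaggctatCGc
Sox9: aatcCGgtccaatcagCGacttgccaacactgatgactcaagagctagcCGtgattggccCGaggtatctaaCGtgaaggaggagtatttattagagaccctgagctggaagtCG

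The Kcnj2 stretch holds 11 CpG in 120 bp and the Sox9 stretch 6 in 115 bp. Over the 250 bp upstream of the start there are 14 and 11, which 34.6% and 43.1% of 21938 protein-coding genes equal or exceed. Within site 4 the best match to the CTCF model was on the plus strand, below the stricter score, and site 19 had no match.

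In the wild-type library, most RAD21 summits stood on the 3′ side of the CTCF motif. Over the whole sites, 14 with a wild-type RAD21 peak had a motif past the 5% score, and the summit was downstream of the motif centre at 12 of them, with a range of -98 to 34 bp and a median of 21.5 bp. The exceptions were sites 11 and 18, both with a match below the stricter score. Whole sites are longer than the sequences on which the 5% score was set, and so reach it more often. Of these 14, 10 had a motif past the stricter score, and all 10 summits were downstream, by 13 to 33 bp. The genome was described at CTCF sites with a motif near the CTCF summit, where 87.1% of 13445 wild-type RAD21 summits were downstream, with a median of 20 bp. Under that same definition the window gave 7 of 8, the exception being site 18. At sites 5, 6 and 7 this displacement is toward Kcnj2, and at sites 8, 9 and 10 it is toward Sox9. In transgenic replicate 2 the displacement was downstream at 2 of 6 such sites, with a median of -21 bp, against 63.5% of 10828 in the genome. Replicate 1 had 3 such sites, 2 of them downstream, against 64.7% in the genome. These are few sites, and the difference between the libraries was not tested. At the 2 promoter-proximal CTCF sites, 3 and 18, the wild-type displacements were 19 bp and -65 bp.

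On the custom genome, to which the authors also mapped the reads, the same 13 and 12 CTCF sites were called, with folds 0.931 to 1.09 times those on mm10 in replicate 1 and 0.939 to 1.01 times in replicate 2. RAD21 lost site 5 in replicate 1 and sites 2 and 12 in replicate 2, which leaves 2 and 8 sites. Positions on chromosome 11 are shared by both genomes, since the most common difference between nearest summits was 0 bp in each of the 4 libraries.

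Among the genes of the window, 2 of 3, Kcnj2 and Sox9, had a CTCF peak within 5 kb of their start, as did 25.7% of 21938 protein-coding genes. The same 2 genes had RAD21 there in replicate 2, against 11.7%, and also in the wild-type list, against 18.5%. Kcnj16 had neither. Of 22 partners of Sox9 and cartilage genes, 11 had a CTCF peak within 5 kb, 7 had RAD21 in replicate 2 and 10 had it in the wild-type list. The genes with all 3 were Matn1, Matn4, Col9a2, Col11a1, Sox4, Sox6 and Hapln1. Sox6 is a partner of Sox9 in cartilage, and Hapln1 encodes a link protein of the cartilage matrix. None was found at Sox5, Col2a1, Acan, Comp, Matn3, Col9a1, Col9a3, Snorc, Runx2 or Runx3. Of these, Col2a1 and Acan encode a collagen and a proteoglycan of cartilage. RAD21 replicate 1 had a peak at 2 of the 22 genes, Sox4 and Hapln1. Of 15 inward rectifier channel genes, 4 had a CTCF peak, 3 had RAD21 in replicate 2 and 4 had it in the wild-type list. Besides Kcnj2 these were Kcnj9 and Kcnj11 with all 3, and Kcnj6 with CTCF and wild-type RAD21. RAD21 replicate 1 had a peak at 2 of the 15, Kcnj2 and Kcnj11. A peak near a start does not show which gene it acts on.

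Windows made by the same rule at 2 other boundary loci were set beside this one, which had 6.20 CTCF sites per Mb, or 4.13 per Mb when only sites called in both replicates were counted. The window from Wnt6 to Pax3, which includes Ihh and Epha4, had 15.4 CTCF sites per Mb, or 11.9 called in both replicates, and 47 protein-coding gene starts. The window of Shh and Lmbr1 had 7.89 per Mb and 9 gene starts, but 3.94 per Mb called in both replicates, so the order of this window and the Kcnj2-Sox9 window turned with that choice. RAD21 replicate 2 had a peak at 40.3% of 62 and at 50.0% of 12 CTCF sites there, beside 60.0% of 15 at the Kcnj2-Sox9 locus. For the wild-type list these shares were 58.1%, 50.0% and 73.3%. In replicate 1 they were 17.7%, 25.0% and 20.0%, so that the Shh window had the highest share. None of these differences was tested.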

How the data were processed

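CTCF and RAD21 peaks of E12.5 limbs were analysed as deposited. The authors aligned the reads to mm10 and, in a further run, to a custom genome that contains the TgN(38-40) insertion, and MACS2 called peaks in each replicate. Tools listed in the submitters' processing notes include MACS2 2.1.1.20160309, Bowtie2 2.3.4.1 and cutadapt 1.16. For each peak the authors deposited the fold, a ratio over the local expectation. They also deposited its q-value and its p-value as -log10. The control given to MACS2 is not given in the sources used here. Since the depth is unknown, folds of sites were compared within a list only, and a site without a peak is one below the threshold. The wild-type list belongs to no sample of the series and has no replicate, and 0 columns of other samples were left unused.

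Sites, overlaps, gaps, windows (stepped by 1 Mb, at most 10% undetermined bases), ranks and motifs were computed with Python 3.11.15, numpy 2.4.6 and pandas 2.3.3. The motif search and the overlap were tested on simulated data. Sequence and annotation are GRCm38 and GENCODE M21, whose chromosomes include every peak of the mm10 lists. Named with values were the sites with a RAD21 peak, the CTCF sites of the desert, the 3 strongest sites of each list, the sites nearest to each gene start and those where motifs change strand. The members, the gene lists and this rule were chosen with earlier results of these data known. The summit displacement, the motif search at sites with RAD21 only and over the merged sites, the comparison with peaks as high as site 6 and the promoter sequences were added after the peaks of the locus were seen. No result comes from a significance test.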

Additional observations from a re-analysis of the deposited data

How the results depend on the processing

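Of the alternative values of the counts, ranks and densities, 66 stayed within 1.5 times the count or within the spread between replicates and 25 moved further. Some of the 66 could hardly move. Removing the flank changed no count, since no site lies in it. Leaving out a transgenic RAD21 replicate could not change the 15 RAD21 sites, all called in the wild-type library. The custom genome setting reused the wild-type list of mm10, so the 15 RAD21 sites could hardly move there either. The same holds for the 11 CTCF sites with wild-type RAD21. For CTCF ranks the allowed spread was wide, with medians of 71.0% in replicate 1 and 32.8% in replicate 2. The wild-type RAD21 list has no replicate, so its ranks were judged by the spread between the transgenic RAD21 replicates. When only peaks whose -log10 q reached 10 were kept, 8 CTCF sites were left, 6 of them in the desert, with 0 carrying RAD21 of replicate 1 and 4 that of replicate 2. With a 500 kb flank there were 24 CTCF and 24 RAD21 sites, and 6, 16 and 20 CTCF sites with RAD21 of replicate 1, of replicate 2 and of the wild-type library, since sites beyond the window come in. Only 3 RAD21 sites were called in both transgenic replicates. With the RAD21 lists cut to the length of the shortest, 2 CTCF sites had RAD21 of replicate 2 and 4 that of the wild-type library. The minus strand motifs fell to 3 at the stricter score, while the strand of each site kept its direction wherever a motif was found. CTCF sites per Mb were 5.37 in replicate 1 and 4.96 in replicate 2 alone, 4.96 where -log10 q reached 5 and 3.31 where it reached 10. Counting only sites of both replicates, a choice made after seeing the data, gave 4.13. The share of windows with as few sites was 37.7% where -log10 q reached 10 and 87.7% among gene-poor windows. The median rank of the RAD21 peaks, 46.9% of the list in replicate 1 and 49.8% in replicate 2 by fold, was 50.5% and 39.9% by q-value or p-value, and 45.2% in replicate 2 on the custom genome. Without CTCF replicate 1 or 2, the CTCF sites numbered 12 and 13. No paired analysis was possible because no result comes from a test. Unknown depth limits what an absent peak means, above all in RAD21 replicate 1.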
